A study of Mus musculus with 33 samples.

Results

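The 5 genomic regions described here lie at or near epsilon and gamma constant genes of the mouse immunoglobulin heavy chain (Igh) locus. These genes are Ighe, Ighg2b, Ighg1 and Ighg3. The regions were taken by their numbers from the 171152 targets of the deposited tables, of which 49745 are numbered regions. The RNA came from CH12, a B lymphoma line of the mouse that expresses IgM and can switch to IgA. The groups were KO1 and KO2, which are clones lacking ZMYND8, a reader of modified histones, and as wild-type lines a WT clone and the parental WT line. Cells of the 4 lines were kept for 48 h in activated or unactivated culture, and 3 libraries were made of each, 24 in all in 8 groups. The labels do not name the activating agents, and they describe the 3 libraries of a group as biological repeats, so p-values measure the spread between these cultures, part of which may be technical. The other 9 samples of the series were not analysed here.

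Before a B cell changes the class of its antibody, the constant gene to be used is transcribed from its own germline promoter, which lies upstream of a short I exon and a repetitive switch region. The resulting germline RNA is spliced but encodes no antibody chain, and its transcription opens the switch region to the deaminase AID. In mouse B cells, gamma 1 and epsilon germline RNA is known to follow interleukin 4. Gamma 2b germline RNA is known to follow TGF-beta or lipopolysaccharide, and gamma 3 germline RNA to follow lipopolysaccharide. These germline RNAs depend, to differing degrees, on the enhancers of the 3' regulatory region downstream of Igha. ZMYND8 is known from mouse B cells as a factor that binds these enhancers.

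All positions are on chromosome 12 of GRCm38, counted from 1. The locus is transcribed towards decreasing positions, so upstream means a higher position. The first region, numbered region_11868, 113274799 to 113278258 (3460 bases), starts 1551 bases upstream of Ighe, the epsilon constant gene for IgE. The second, region_11869, 113314446 to 113315182 (737 bases), starts 6513 bases upstream of Ighg2b, the constant gene for IgG2b. The third, region_11870, 113320797 to 113329753 (8957 bases), overlaps Ighg1, the constant gene for IgG1, over 3213 bases, which is 80.7% of the gene and 35.9% of the region. The remaining 5744 bases of the region lie downstream of Ighg1. The fourth, region_11871, 113331796 to 113341015 (9220 bases), starts 1273 bases upstream of Ighg1. The fifth, region_11872, 113362281 to 113362926 (646 bases), starts 1049 bases upstream of Ighg3, the constant gene for IgG3. The annotation used gives each constant gene as 1 span, without I exons or switch regions, and no strand is given for a region, so the counts are RNA from these intervals and not a measure of spliced germline transcripts. Ighg2c, between Ighg2b and Ighe, has no region among the 5. Counts of the regions upstream of Ighg2b, Ighg1 and Ighg3 were whole numbers in every library, whereas those of the region overlapping Ighg1 were not, with values up to 0.492 from the nearest whole number, so part of its reads was shared with other targets. Reads that the quantification assigned to annotated transcripts of Ighg1 or another constant gene were not added to the regions, so levels, shares and ranks cover each region's own target.

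**Figure D1:**
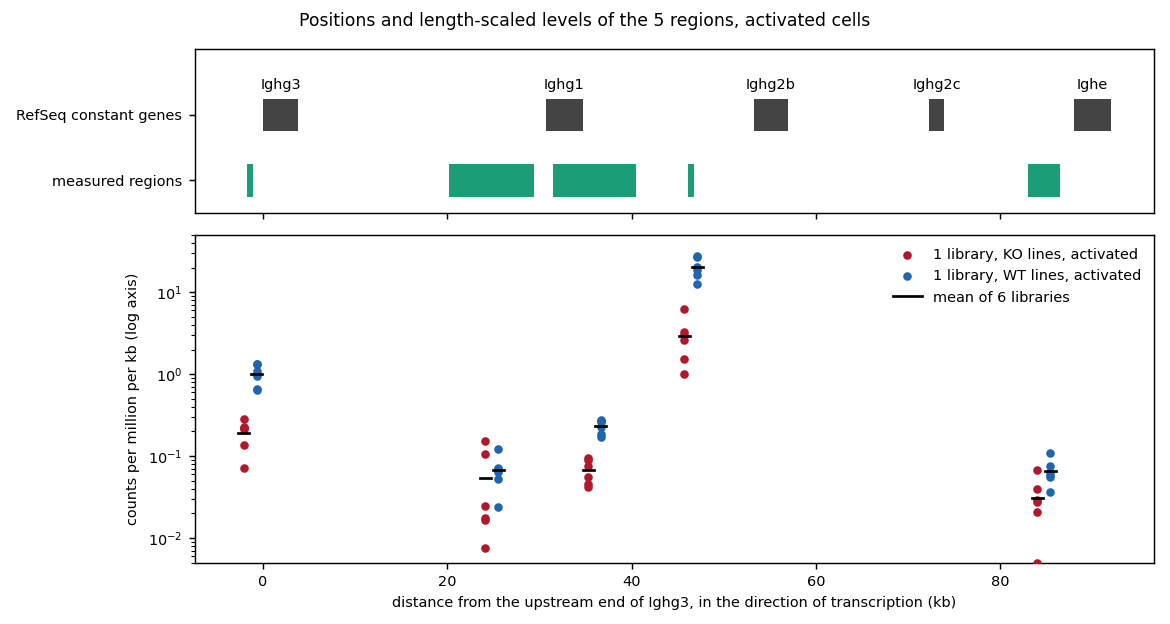
The upper panel maps the 5 regions (green) and the RefSeq constant genes (grey) by distance from the upstream end of Ighg3 in kb. The lower panel gives the level in activated cells as CPM per kb on a log axis, with 1 point per library (6 KO, 6 WT, drawn side by side) and black lines for the means; 1 KO library at 0 for the region near Ighe is drawn on the lower edge. The short region upstream of Ighg2b stands highest in both genotypes, with means of 2.96 in KO and 20.5 in WT.

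Libraries held between 28.99 and 34.07 M estimated counts (median 32.1 M), of which numbered regions took 3.78% to 5.48%. Levels are given as CPM, the count divided by the library total in M, so 3 counts over the 6 libraries of a genotype and state equal 0.0153 to 0.0160 CPM. The B cell markers with values (Cd79a, Pax5, Ebf1 and Blk) summed to 46.6 to 69.1 CPM in activated KO cells, 25.3 to 48.7 in activated WT, 31.5 to 45.3 in unactivated KO and 15.3 to 43.7 in unactivated WT. The T cell markers Thy1 and Lck summed to 0.446 to 0.9301 CPM in activated KO against 0.148 to 0.383 CPM in activated WT cells, and to 0.443 to 0.753 CPM in unactivated KO against 0.196 to 0.381 CPM in unactivated WT cells. The plasma cell markers Sdc1 and Prdm1 summed to 0.409 to 0.873 CPM in activated KO against 0.119 to 0.540 CPM in activated WT cells, and to 0.663 to 1.10 CPM in unactivated KO against 0.302 to 1.18 CPM in unactivated WT cells. The 3 myeloid markers with values summed to at most 1.28 CPM in any library, and none of the measured markers was at 0 in all 24 libraries. The part of these markers in the results on genotype was not tested. RNA of regions inside Zmynd8, which gives no check of the labels because the deleted part is not given, was 2.94 to 4.43 CPM in activated KO cells against 2.05 to 3.39 CPM in activated WT cells. Its level was 1.56 to 2.58 CPM in unactivated KO cells against 1.16 to 1.90 CPM in unactivated WT cells. In the fit of gene values described below, it was called higher in activated KO cells (log2 change 0.52, edgeR adjusted p = 0.0416). That call stands beside 6.34% of gene values called higher. In unactivated cells it was not called (log2 change 0.32, edgeR adjusted p = 0.333). In 3 unactivated groups (KO1, the WT clone and parental WT) the library least like the others of its group had a mean correlation with them of 0.900 to 0.929, under a limit of 0.93, and a fit without these 3 libraries is named below where it ended a call.

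The 5 regions summed to 75, 3159, 601, 220 and 182 counts over the 24 libraries, in the order Ighe, Ighg2b, overlapping Ighg1, upstream of Ighg1 and Ighg3. A filter on low counts kept 61074 of the targets and 4 of the 5 regions. The region near Ighe failed it, reaching 10 counts in 1 library. The region upstream of Ighg2b reached 10 counts in 18 libraries, the region overlapping Ighg1 in 16, the region upstream of Ighg3 in 9 and the region upstream of Ighg1 in 7, so these 4 passed through the groups in which they are high, and the counts of calls below do not describe regions at low levels. All libraries were fitted together with edgeR's quasi-likelihood test on rounded counts. A region was called at an adjusted p (Benjamini-Hochberg over the 61074 targets) under 0.05. After a log2 change, ± gives a standard error computed from that change and the test's F value. With few counts in a group it can be far narrower than the interval from counting error and does not bound the size of the change.

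Per kb of effective length, the region upstream of Ighg2b had the highest level in 3 of the 4 combinations of genotype and state. Activated KO cells held 2.96 ± 1.86 CPM per kb of it and activated WT cells 20.5 ± 6.04 CPM per kb (SD, n = 6 each). The region upstream of Ighg3 came next, at 0.192 ± 0.0755 in KO and 0.996 ± 0.303 CPM per kb in WT, followed by the region overlapping Ighg1 at 0.0673 ± 0.0225 in KO and 0.232 ± 0.0445 CPM per kb in WT. The regions upstream of Ighg1 and Ighe stood close together in activated WT cells, at 0.0669 ± 0.0320 and 0.0665 ± 0.0240 CPM per kb, which do not differ beyond their spread. In unactivated WT cells the order was Ighg2b (7.09 ± 2.00), Ighg3 (0.927 ± 0.286), overlapping Ighg1 (0.0411 ± 0.0142), Ighe (0.0115 ± 0.00776) and upstream of Ighg1 (0.00468 ± 0.00529 CPM per kb), with the last pair overlapping. In unactivated KO cells the region upstream of Ighg2b was instead at 0 in all libraries, and the region overlapping Ighg1 stood at 0.0157 ± 0.00319, that upstream of Ighg3 at 0.0112 ± 0.0275 and that near Ighe at 0.0110 ± 0.00693 CPM per kb, which do not differ beyond their spread.

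**Figure D2:**
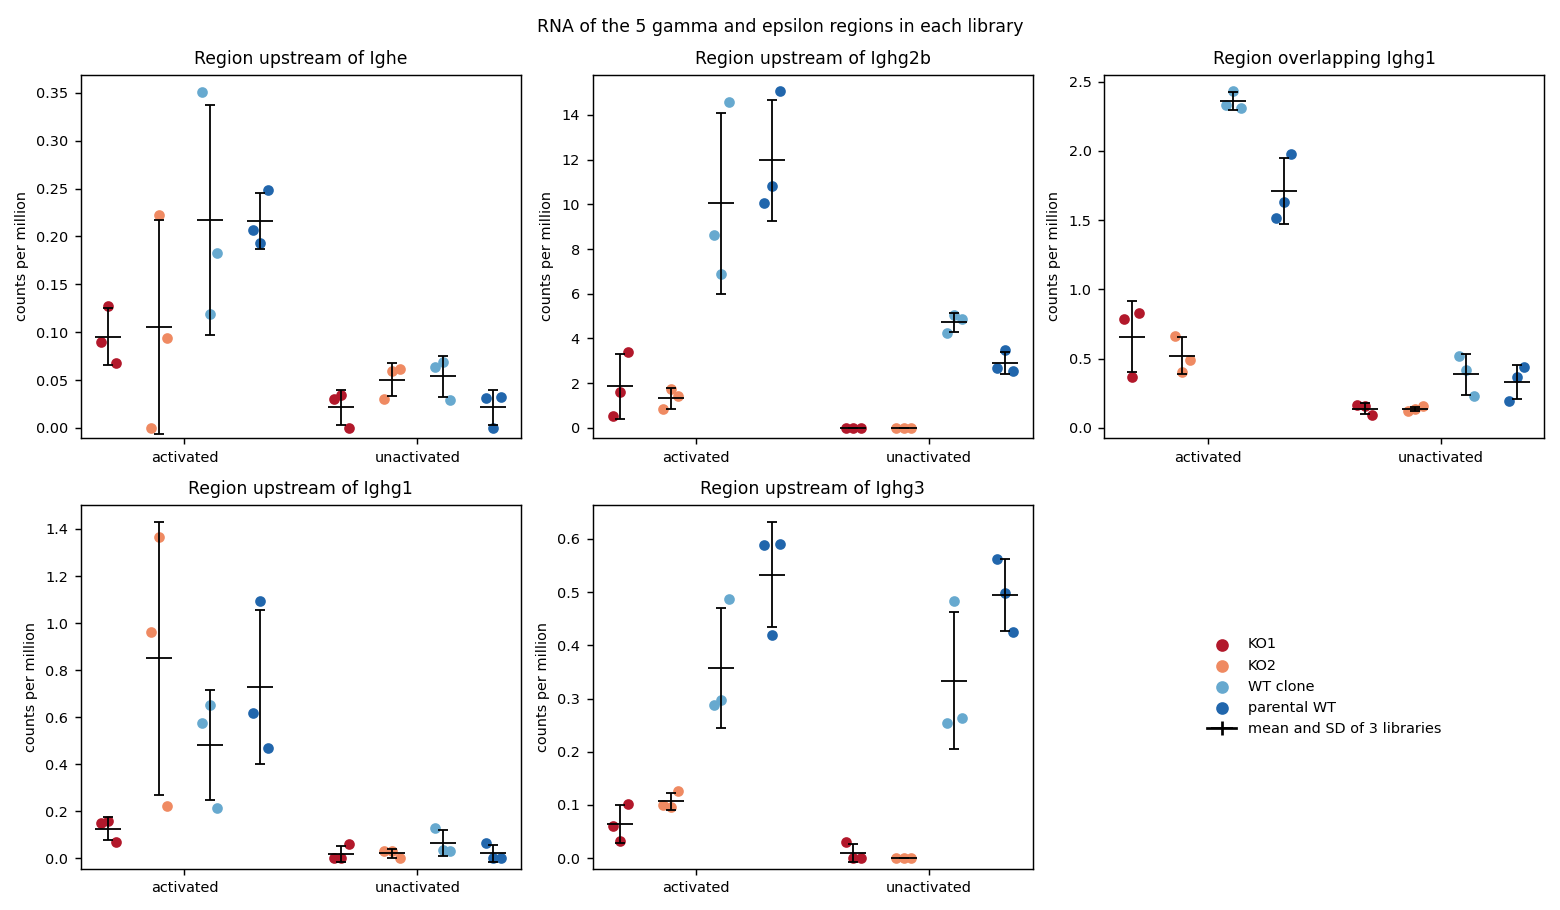
Each panel gives the level of 1 region in CPM, with 1 point per library, grouped by state and within each state as KO1, KO2, WT clone and parental WT; black bars are the mean and SD of 3 libraries. For the region upstream of Ighg2b all unactivated KO points lie at 0, and in activated cells no KO point exceeds 3.40 while no WT point is below 6.88.

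RNA of 3 of the 4 tested regions was lower in KO than in WT cells in both states, taking libraries as samples: the regions upstream of Ighg2b, overlapping Ighg1 and upstream of Ighg3. When the libraries of each line were pooled before testing, the region overlapping Ighg1 lost its call in both states. The region upstream of Ighg3 then lost its call in activated cells. With so few lines per genotype, loss of ZMYND8 and other differences between the clones cannot be told apart. Of all targets tested, 3.02% were lower in KO in activated cells and 4.03% in unactivated cells. No region was called higher, beside 3.5% of targets in activated and 3.13% in unactivated cells. In bulk RNA, fewer cells with a transcript and less of it per cell cannot be told apart. The region upstream of Ighg1 was not called, and the region near Ighe, outside the fit, held too few counts in unactivated cells for a comparison.

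Upstream of Ighg2b, activated KO1 libraries had 0.541, 1.63 and 3.40 CPM and KO2 libraries 0.830, 1.75 and 1.41 CPM, against 8.64, 6.88 and 14.6 CPM in the WT clone and 10.0, 10.8 and 15.1 CPM in parental WT. Every KO library lay below every WT library. The share of all targets whose KO and WT libraries separate in this way was not counted, here or for the regions below. KO libraries averaged 1.59 ± 1.00 CPM and WT libraries 11.01 ± 3.25 CPM (SD, n = 6 each), which is 7.01-fold lower in KO (95% counting interval 6.20 to 7.94), and the log2 change was -2.85 ± 0.35 (edgeR adjusted p = 9.03e-05). In unactivated cells all 6 KO libraries held 0 counts, against 4.25, 5.04 and 4.87 CPM in the WT clone and 2.68, 3.48 and 2.55 CPM in parental WT. A floor of 3 counts over the 6 libraries allows up to 0.0153 CPM in unactivated KO cells. Against this floor the 722 WT counts make the region 249-fold lower there (edgeR adjusted p = 9.53e-08). The 95% counting interval starts lower, at 202-fold. Intervals and floors cover counting error only.

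Upstream of Ighg3, activated KO1 libraries had 0.0601, 0.0319 and 0.102 CPM and KO2 libraries 0.0996, 0.0953 and 0.126 CPM, against 0.287, 0.297 and 0.488 CPM in the WT clone and 0.589, 0.419 and 0.591 CPM in parental WT. The groups did not overlap. The 16 KO and 87 WT counts gave a level 5.23-fold lower in KO (3.04 to 9.55), with a log2 change of -2.38 ± 0.37 (edgeR adjusted p = 0.000503). In unactivated cells a single count was found in 1 of 6 KO libraries (KO1, 0.0301 CPM), against 0.254, 0.483 and 0.264 CPM in the WT clone and 0.562, 0.498 and 0.425 CPM in parental WT. With 1 KO and 78 WT counts the level was 80.7-fold lower in KO, with a counting interval of 14.1 to 3226. The log2 change was -5.84 ± 0.52 (edgeR adjusted p = 1.13e-06), with a standard error far narrower than that interval.

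For the region overlapping Ighg1, activated KO1 libraries had 0.783, 0.366 and 0.828 CPM and KO2 libraries 0.665, 0.404 and 0.488 CPM, against 2.33, 2.43 and 2.31 CPM in the WT clone and 1.52, 1.63 and 1.97 CPM in parental WT. No KO library reached the lowest WT library. The level was 3.47-fold lower in KO (2.80 to 4.33), with a log2 change of -1.82 ± 0.24 (edgeR adjusted p = 6.28e-05). In unactivated cells KO1 had 0.168, 0.155 and 0.0907 CPM and KO2 0.125, 0.133 and 0.155 CPM, against 0.516, 0.417 and 0.227 CPM in the WT clone and 0.197, 0.367 and 0.437 CPM in parental WT. Here the groups stood closer, with the highest KO library at 0.168 CPM and the lowest WT library at 0.197 CPM. The 27 KO and 68 WT counts gave a level 2.60-fold lower in KO (1.65 to 4.23), with a log2 change of -1.35 ± 0.27 (edgeR adjusted p = 0.00278). With counts summed per line, 2 KO against 2 WT lines, both calls of this region were lost (adjusted p = 0.0501 in activated and 0.0997 in unactivated cells), as was the activated call upstream of Ighg3 (0.147).

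Upstream of Ighg1 no difference between KO and WT lines was called. Activated KO1 libraries had 0.150, 0.159 and 0.0681 CPM and KO2 libraries 0.963, 1.37 and 0.220 CPM, against 0.574, 0.653 and 0.213 CPM in the WT clone and 0.619, 1.09 and 0.467 CPM in parental WT. All KO1 libraries lay below all WT libraries, and KO2 libraries spanned the WT range. Over both clones the 91 KO and 117 WT counts gave a ratio of 0.809 (0.608 to 1.07), while the log2 change, which averages the lines on the log scale, was -0.88 ± 0.57 (edgeR adjusted p = 0.530). With KO2 as the KO line alone it was 0.48. In unactivated cells the region held 4 KO and 8 WT counts, and the log2 change of -0.78 ± 0.93 (edgeR adjusted p = 0.754) tells little at this depth.

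The region near Ighe held between 0 and 7 counts in any activated KO library and between 4 and 11 in any activated WT library. Activated KO libraries averaged 0.100 ± 0.0733 CPM and activated WT libraries 0.217 ± 0.0782 CPM (SD, n = 6 each), and the groups overlapped. The 19 KO and 42 WT counts put it 2.13-fold lower in KO (1.21 to 3.87), but in a fit without the filter the log2 change of -1.12 ± 0.54 was not called (edgeR adjusted p = 0.537). In unactivated cells there were 7 counts in each genotype, which averaged to 0.0359 ± 0.0226 CPM per KO library and 0.0376 ± 0.0253 CPM per WT library, and no difference was detectable at this depth.

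The 5 regions together summed to 2.86 ± 1.07 CPM in activated KO and 14.3 ± 3.16 CPM in activated WT cells, and to 0.199 ± 0.0296 CPM in unactivated KO and 4.67 ± 1.06 CPM in unactivated WT cells (n = 6 each). Their shares, given as values without a test, were as follows. The region upstream of Ighg2b gave 55.5% of the summed counts in activated KO and 76.9% in activated WT cells, and 0% of 38.9 counts in unactivated KO against 81.8% of 883 counts in unactivated WT cells. The region overlapping Ighg1 gave 20.8% in activated KO and 14.2% in activated WT cells, and 69.1% in unactivated KO against 7.66% in unactivated WT cells.

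Most other tested Igh targets were higher in KO cells, chiefly those downstream of Igha. The 14 other targets are the numbered regions from those downstream of Igha to that over Ighm, and the 7 named elements. Of these, 10 were tested. In activated cells 6 of these were higher in KO and 0 lower, and in unactivated cells 8 were higher and 1 lower, beside the 3.5% higher and 3.02% lower of all targets in activated and 3.13% higher and 4.03% lower in unactivated cells. Those higher in activated cells were the tested regions downstream of Igha, the named enhancer element hs3b and the region over Ighm. The other 4 in activated cells had log2 changes of -0.15 to 0.33. Among numbered regions, which have positions, the nearest neighbours are, on the downstream side, the region inside Igha, which encodes the heavy chain of IgA, and the region over Ighm, the mu constant gene for IgM, on the upstream side. The region inside Igha stood at 9.60 CPM in activated KO and 9.55 CPM in activated WT cells (log2 change -0.03, edgeR adjusted p = 0.944). In unactivated cells it was 1.84-fold higher in KO (1.69 to 2.00). The region over Ighm was 1.65-fold higher in activated KO cells (1.63 to 1.67) and 0.728 times the WT level in unactivated KO cells (0.721 to 0.735). These intervals cover counting error only, and its unactivated KO and WT libraries overlapped. The named element for the alpha switch intron, which has no position in the tables, stood at 3.02 CPM in activated KO and 2.41 CPM in activated WT cells (ratio 1.25, 1.10 to 1.41; edgeR adjusted p = 0.569), and at 0.669 CPM in unactivated KO and 0.873 CPM in unactivated WT cells (ratio 0.773, 0.609 to 0.978; adjusted p = 0.157). Downstream of Igha, the region from 113235821 was 13.1-fold higher in activated KO (10.8 to 16.1) and 20.5-fold higher in unactivated KO cells (15.6 to 27.4). The regions called lower in activated KO cells thus lay between the region inside Igha, with a ratio of 1.00 (0.940 to 1.07), and the region over Ighm, which was higher.

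**Figure D3:**
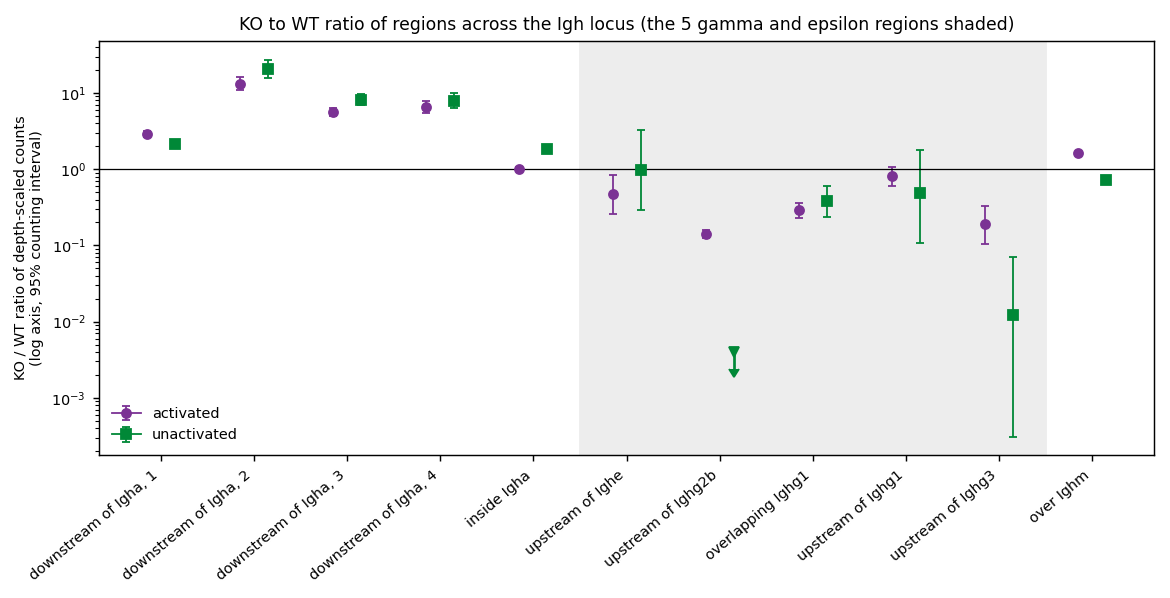
KO to WT ratio of depth-scaled counts on a log axis for numbered regions of the locus in their order along the chromosome, with 95% counting intervals, in activated (circles) and unactivated (squares) cells. The 5 regions are shaded; the triangle with an arrow marks the unactivated bound upstream of Ighg2b, where KO held 0 counts, and 1 further region at 0 counts and the 7 named elements are not drawn.

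Activation raised 4 of the 4 tested regions in the KO lines and 3 of 4 in the WT lines, beside 10.9% of all targets called higher in KO and 10% in WT lines. In WT lines the region upstream of Ighg3 was the exception. No region was called lower, beside 8.73% of targets in KO and 10.2% in WT lines. The region upstream of Ighg1 stood at 0.488 ± 0.541 CPM in activated and 0.0199 ± 0.0242 CPM in unactivated KO cells (SD, n = 6 each), a ratio of 23.8 (8.97 to 89.0) and a log2 change of 3.68 ± 0.76 (edgeR adjusted p = 0.00166). In WT lines it stood at 0.603 ± 0.288 CPM in activated and 0.0422 ± 0.0477 CPM in unactivated cells, a ratio of 14.2 (6.97 to 33.7; log2 change 3.78 ± 0.70, edgeR adjusted p = 0.000594), the largest ratio among the 5 regions in WT lines. By line the ratio was 6.17 in KO1, 41.9 in KO2, 7.57 in the WT clone and 34.1 in parental WT, each over 2 to 6 unactivated counts. Without the third unactivated KO1 library the log2 change in KO was 5.02, and without the first unactivated parental WT library that in WT was 5.14. With counts summed per line these calls were lost in KO (adjusted p = 0.0590) and in WT lines (0.0706).

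The region overlapping Ighg1 lay higher in every activated library than in any unactivated library of the same line. In KO cells the activated level was 4.25-fold the unactivated one (2.77 to 6.74; log2 change 1.93 ± 0.27, edgeR adjusted p = 2.76e-05). In WT cells it was 5.67-fold (4.37 to 7.44; log2 change 2.39 ± 0.25, edgeR adjusted p = 1.17e-06). The test of the difference between genotypes gave a log2 value of -0.46 ± 0.38 (edgeR adjusted p = 0.790). By line, the ratios were 4.90 in KO1, 3.64 in KO2, 6.20 in the WT clone and 5.22 in parental WT, with overlapping intervals.

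Upstream of Ighg2b, the KO lines held 294 counts in activated and 0 in unactivated cells, which put the activated level at least 102-fold higher (edgeR adjusted p = 2.05e-07), with lower bounds of 57.9-fold in KO1 and 44.2-fold in KO2. Activated WT cells held 2.88-fold the unactivated level (2.65 to 3.14; log2 change 1.46 ± 0.33, edgeR adjusted p = 0.00545). By line the ratio was 2.13 (1.90 to 2.38) in the WT clone and 4.10 (3.60 to 4.70) in parental WT. The activated KO level of 1.59 ± 1.00 CPM was below the unactivated WT level of 3.81 ± 1.08 CPM, with 1 KO1 library at 3.40 CPM inside the WT range of 2.55 to 5.04 CPM.

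On the log2 scale of the fit, the activation effect upstream of Ighg2b differed between the genotypes (edgeR adjusted p = 0.000213), and so did that upstream of Ighg3 (adjusted p = 0.0205). These are 2 of the 4 tested regions, beside 0.766% of all targets with a higher and 0.388% with a lower activation effect in KO. With counts summed per line, edgeR called 0 of 61074 targets for this difference (4765 at an unadjusted p under 0.05), so the loss of both calls there (adjusted p = 0.288 at Ighg2b and 0.534 at Ighg3) says little about these regions. Upstream of Ighg3, KO cells had 16 activated counts and 1 unactivated count, a ratio of 16.7 with an interval of 2.60 to 701 (log2 change 3.46 ± 0.56, edgeR adjusted p = 0.000977, but 0.0508 with counts summed per line). WT cells had 87 activated and 78 unactivated counts, a ratio of 1.08 (0.788 to 1.49; log2 change 0.00 ± 0.32, edgeR adjusted p = 1.00). The difference upstream of Ighg3 rests on these 17 KO counts. Without the first unactivated KO1 library, which held the single unactivated count, the log2 change in KO was 4.40. Its call was lost without any of 5 single libraries (KO1 unactivated 3, KO1 activated 3, or any of the KO2 unactivated libraries; adjusted p 0.0518 to 0.0734), without the filter (0.0587), and without the 3 libraries that correlate least (0.0589). For the region near Ighe, a fit without the filter gave a log2 change on activation of 1.38 ± 0.64 in KO (19 against 7 counts, edgeR adjusted p = 0.274) and 2.45 ± 0.62 in WT (42 against 7 counts, adjusted p = 0.0153).

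**Figure D4:**
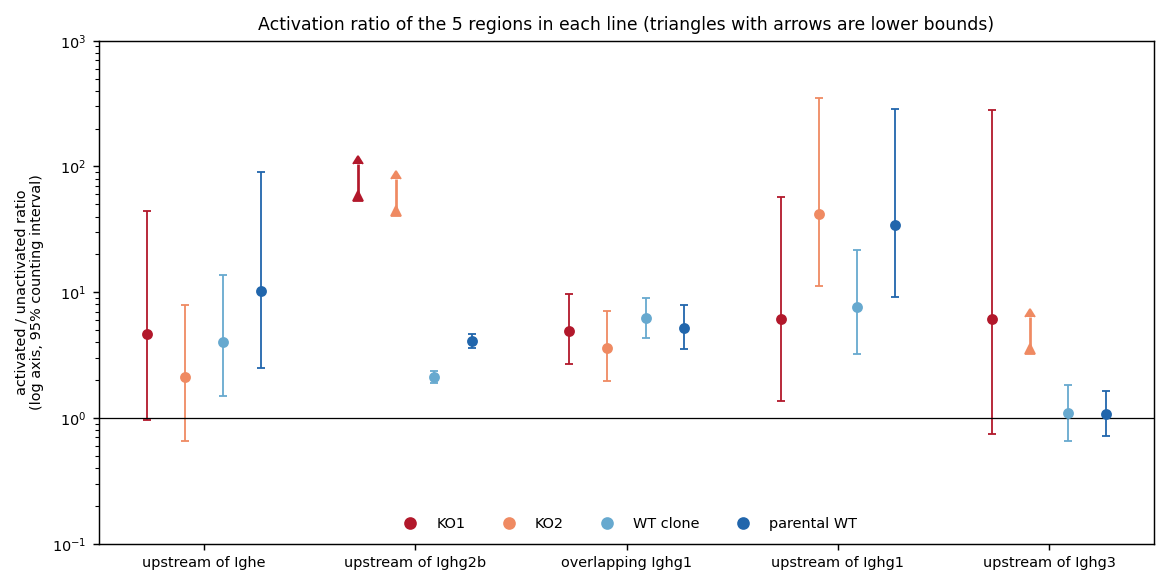
Ratio of the activated to the unactivated level of each region in each line, on a log axis with 95% counting intervals. Triangles with arrows are values against a floor of 3 counts where the unactivated line held 0, and their 95% intervals start lower. Upstream of Ighg2b the KO values against this floor are 57.9 and 44.2 while the WT ratios are 2.13 and 4.10. Upstream of Ighg3 both WT ratios lie near 1.

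Lines of 1 genotype were also compared. No region was called between KO1 and KO2, beside 0.46% of all targets in activated and 0.403% in unactivated cells, nor between the WT clone and parental WT, beside 0.506% and 0.527% in these states. Of the 4 tested regions, edgeR's unadjusted p was under 0.05 for 1 between the activated KO clones and for 0 in each other pair of lines, and DESeq2 called none, giving 1 of the 4 no adjusted p between unactivated WT lines. That 1 region lies upstream of Ighg1, where activated KO1 held 12 counts and KO2 79, a level 6.62-fold lower in KO1 (3.59 to 13.4; log2 change -2.72 ± 0.86, edgeR adjusted p = 0.374). KO1 and KO2 did not overlap there, with KO1 at 0.0681 to 0.159 CPM and KO2 at 0.220 to 1.37 CPM. Among WT lines, the unactivated region upstream of Ighg2b averaged 4.72 ± 0.414 CPM in the WT clone and 2.91 ± 0.504 CPM in parental WT (SD, n = 3 each), without overlap (log2 change 0.74 ± 0.47, edgeR adjusted p = 0.882). For the region overlapping Ighg1, activated WT clone libraries averaged 2.36 ± 0.0656 CPM and parental WT libraries 1.71 ± 0.239 CPM, also without overlap (log2 change 0.50 ± 0.33, edgeR adjusted p = 0.911). The share of all targets without overlap between 2 lines of n = 3 each was not counted. The cases without overlap are thus not read as differences between lines.

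Across the 24 libraries, levels as log2(CPM + 0.5) correlated between the regions upstream of Ighg2b and Ighg3 with Pearson's r of 0.86, and between those upstream of Ighg2b and overlapping Ighg1 with r of 0.80. The neighbouring regions overlapping and upstream of Ighg1 correlated with r of 0.62, and the regions upstream of Ighg1 and upstream of Ighg3 with r of 0.23. These values describe libraries that share lines, states and depth, and no test was made on them. Outside the Igh locus, among 11250 regions, the highest r with the region upstream of Ighg2b belonged to regions at Vash1 (0.94), Nrp1 (0.91) and Ccdc80 (0.88). The region at Vash1 averaged 1.56 CPM in activated KO, 3.01 in activated WT, 0.562 in unactivated KO and 1.70 CPM in unactivated WT cells. For the region overlapping Ighg1 the highest were Mndal (0.97), Bbs9 (0.95) and Pde4dip (0.94), and for that upstream of Ighg1 another Pde4dip region (0.88), a region of chromosome 11 outside annotated genes (0.88) and T2 (0.87). For the region upstream of Ighg3 the highest r, 0.89, belonged to a region over the lambda light chain segments Iglc1, Iglc3 and Iglj1. It averaged 12.9 CPM in activated KO, 91.3 in activated WT, 18.8 in unactivated KO and 85.4 CPM in unactivated WT cells. A region at Adgrl2 (0.87) and 1 on chromosome 3 outside annotated genes (0.85) followed.

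RNA from genes known to regulate germline transcription was set beside the regions. A gene value here is the sum of regions wholly inside 1 RefSeq gene, so it covers part of the gene and its introns, and 4510 gene values were tested. Of 12 listed receptors and kinases that carry switching signals, 8 were tested, and 0 were called between KO and WT in either state, beside 6.34% of gene values higher and 2.33% lower in activated cells and 3.46% higher and 3.1% lower in unactivated cells. At an unadjusted edgeR p under 0.05 there were 2 in activated and 1 in unactivated cells. Their median log2 change was -0.10 in activated cells, against 0.07 over all gene values, and -0.29 in unactivated cells, against -0.03. Named after their values were seen, Ifngr1, a subunit of the interferon gamma receptor, had the largest change of the 8 in activated cells, and Tgfbr1, a subunit of the TGF-beta receptor, a small one. Ifngr1 stood at 0.264 ± 0.103 CPM in activated KO and 0.478 ± 0.176 CPM in activated WT cells (log2 change -0.87 ± 0.30, edgeR adjusted p = 0.0686). Tgfbr1 stood at 1.99 ± 0.503 CPM in activated KO and 2.16 ± 0.925 CPM in activated WT cells (SD, n = 6 each).

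On activation, 6 of the 8 signal genes rose in KO and 6 in WT lines, beside 24.1% of gene values called higher and 4.26% lower in KO and 16.4% higher and 5.41% lower in WT lines. Their median log2 change was 1.02 in KO, against 0.28 over all gene values, and 0.95 in WT, against 0.19. Tgfbr2, the other TGF-beta receptor subunit, rose by a log2 change of 1.42 ± 0.14 in KO (edgeR adjusted p = 2.53e-08) and 1.21 ± 0.14 in WT lines (adjusted p = 3.74e-07). Tgfbr1 rose by 2.04 ± 0.29 in KO and 1.98 ± 0.29 in WT lines. Il21r, the interleukin 21 receptor, rose by 1.83 ± 0.19 in KO and 0.96 ± 0.19 in WT lines, and Cd40, the receptor for the T cell ligand CD154, by 1.60 ± 0.33 in KO and 1.44 ± 0.32 in WT lines. No activation effect of these 8 genes was called different between genotypes by edgeR, with 1 at an unadjusted p under 0.05, beside 0.443% of gene values with a higher and 0.155% with a lower effect in KO.

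Of 30 listed transcription factors, 23 were tested, to be read beside the shares of gene values given above (6.34% higher and 2.33% lower in activated KO, 3.46% and 3.1% in unactivated KO). In activated cells 4 were higher in KO and 0 lower: Irf4, a factor of activated B cells (log2 change 0.89 ± 0.19, edgeR adjusted p = 0.00208), Runx1 (0.63 ± 0.16), Pou2af1, a coactivator of octamer factors (0.61 ± 0.18), and Ikzf1 (0.47 ± 0.14). In unactivated cells 2 were higher in KO, Ets1 (0.81 ± 0.19) and Runx1 (0.59 ± 0.15), and 1 was lower, Irf8, an interferon regulatory factor of B cells. Unactivated KO cells held 0.135 ± 0.0844 CPM of Irf8 and unactivated WT cells 0.810 ± 0.448 CPM (log2 change -2.60 ± 0.42, edgeR adjusted p = 0.000189). The median log2 change of the tested factors was -0.01 in activated cells, against 0.07 over all gene values, and -0.03 in unactivated cells, equal to that over all gene values. On activation 12 of the 23 rose and 3 fell in KO, and 8 rose and 3 fell in WT lines, beside 24.1% of gene values higher and 4.26% lower in KO and 16.4% and 5.41% in WT lines. Batf, a factor needed for class switching, rose by 1.63 ± 0.26 in KO and 0.88 ± 0.26 in WT lines, and Irf4 by 1.34 ± 0.19 in KO and 0.81 ± 0.20 in WT lines. Runx3 rose by 0.79 ± 0.14 in KO and 0.98 ± 0.14 in WT lines. Ikzf1, Runx1 and Spi1 fell in both genotypes. The median over the 23 was 0.52 in KO and 0.24 in WT lines, and no activation effect among them was called different between genotypes (edgeR; 3 at an unadjusted p under 0.05). Of 15 genes for looping and elongation, 6 were tested and none was called between genotypes (edgeR; 1 in each state at an unadjusted p under 0.05), and on activation Stag2, a cohesin subunit, rose in KO lines by 1.11 ± 0.36 (adjusted p = 0.0224), which is 1 of 6 beside 24.1% of all gene values. Their median log2 change in KO against WT was 0.18 in activated and 0.20 in unactivated cells.

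**Figure D5:**
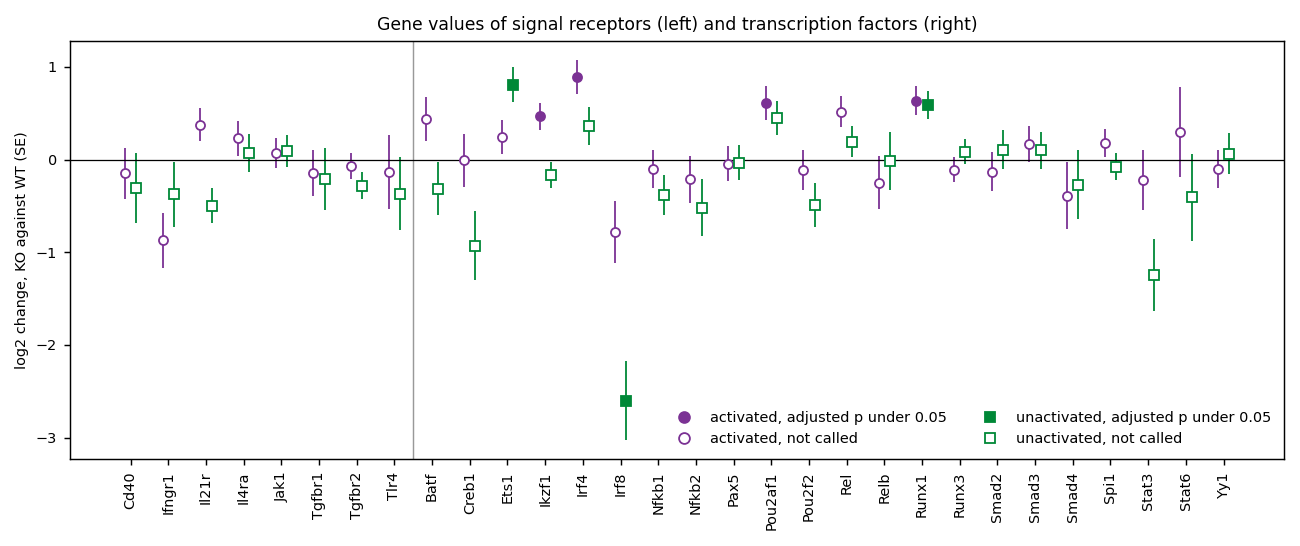
Log2 change in KO against WT with its standard error for the 8 tested signal receptors and kinases (left of the line) and 22 of the 23 tested transcription factors, in activated (circles) and unactivated (squares) cells; filled symbols have an adjusted p under 0.05. No receptor is filled, and among the factors the lowest filled value is Irf8 in unactivated cells at -2.60.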

How the data were processed

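The 24 libraries were of total RNA depleted of ribosomal RNA, made with a stranded kit, per the labels. Quantification used kallisto 0.43.0 with GRCm38.p5, and DESeq2 is also named, per the submitters' processing notes; the strand setting was not given in the sources used. The authors deposited estimated counts (not whole, not normalized) and TPM per target; the deposited TPM values were not used. Effective lengths were equal in all libraries.

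The members and gene lists were chosen with earlier results of these data known. Estimated counts of all targets were rounded, filtered by filterByExpr over the 8 groups (minimum count 10), scaled by TMM (trimmed mean of M) and fitted with edgeR 4.0.16 (limma 3.58.1, R 4.3.3) as 8 group means; a genotype's lines were averaged. Gene values sum regions inside 1 RefSeq gene of the GRCm38.p6 table, leaving out 7 whole-locus entries, and were fitted likewise. Levels (CPM) are scaled by library totals. Ratios of summed counts carry 95% exact intervals (scipy 1.17.1), and a group at 0 takes a floor of 3 counts in all. The fit was tested on simulated data before use. Named genes were the 5 regions, other Igh targets, Zmynd8, up to 4 called members of a list per comparison with the smallest p (1 such gene is not reported here), and per tested region the 3 regions outside Igh with the highest r over log2(CPM + 0.5). Alternatives were relative log expression scaling, library totals, DESeq2 1.42.0, no filter, a replicate block, counts summed per line, only a comparison's libraries, regions alone, single lines and each library left out; leaving out 3 libraries was chosen after seeing the data.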

Additional observations from a re-analysis of the deposited data

Results flagged for a closer look

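Upstream of Ighg3 in unactivated KO cells, the highest library, KO1 1, held 0.0301 CPM and the other 5 held 0. With 5 libraries at 0, a single count in the sixth stands out whatever its size, so the chance rate of about 1 in 20 groups, which holds for continuous values, does not apply here.

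The activation effect upstream of Ighg2b differed between KO and WT lines (edgeR adjusted p = 0.000213), with 294 activated and 0 unactivated counts in KO and 2143 activated and 722 unactivated counts in WT. Upstream of Ighg3 the effect also differed (adjusted p = 0.0205), with 16 activated counts and 1 unactivated count in KO and 87 and 78 in WT. Both differences are higher in KO, and both start from unactivated KO levels at or near 0.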

How the results depend on the processing

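Among single alternatives, the count of regions called between KO and WT lines stayed at 3 in each state, except with counts summed per line, which left 1 in activated and 2 in unactivated cells. Over all targets that setting called 224 higher and 143 lower in activated KO cells (2139 and 1846 with libraries as samples) and 198 higher and 249 lower in unactivated KO cells (1910 and 2464). The same setting left 2 of 4 activation calls in KO and 0 of 2 differences of activation effects; it compares 2 lines with 2. The differences fell to 1 call without the filter and with DESeq2, which gave the region upstream of Ighg3 no adjusted p, and ranged from 1 to 2 with each library left out. Without the filter 2 transcription factors were lower in unactivated KO cells and 1 had a higher activation effect in KO. In that fit 3 factors were higher in activated KO cells (4 with the filter) and 2 fell on activation in KO lines (3 with the filter). Of the signal genes, 7 rose in WT lines (6 with the filter).

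No called value changed sign, while some values that were not called did. The log2 change upstream of Ighg3 on activation in WT lines was -0.018 with relative log expression scaling, -0.0078 without the filter, -0.017 with the replicate block, -0.24 with regions alone and -0.0080 with DESeq2, and -0.13 to 0.18 with each library left out. Upstream of Ighg1 it was 0.48 with KO2 alone in activated cells, 0.68 for the difference with counts summed per line and 0.064 without the 3 libraries least like their groups, and -0.016 between unactivated KO clones in a fit of only their libraries. With each library left out it ranged from -2.12 to 0.57 between unactivated genotypes, -1.45 to 1.24 for the difference and -2.66 to 0.52 between unactivated KO clones; the first unactivated parental WT library (0.57) and the third unactivated KO1 library (1.24 and -2.66) turned the sign. Between KO clones the range was -0.28 (without the third activated KO1 library) to 0.86 upstream of Ighg2b when activated and -0.061 to 0.39 at Ighg1 when unactivated.

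Replicate numbers did not pair the samples: in 1 of 28 pairs of groups every correlation of deviations was over 0.1 (-0.42 to 0.40), and the replicate block changed no call of the 4 regions. With library totals in place of TMM, activation calls over all targets split as 8480 higher and 3722 lower in KO (TMM 6649 and 5333) and 7567 and 4814 in WT (TMM 6119 and 6247). The median log2 change on activation was then 0.18 in KO (TMM 0.07) and 0.12 in WT (TMM 0.02). Regions with under 20 counts in a genotype and state limit what depth can show.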
